A study of Mus musculus and Canis lupus familiaris with 12 samples.

Results

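The response of Gracie cells, a dog osteosarcoma line, to omacetaxine (OMX) was described over all genes, from 3 libraries of cells kept for 6 h in 50 nM OMX and 3 libraries of untreated cells. These are 6 of the 12 libraries of the series, chosen by their labelled cell line, and the other 6 come from the mouse osteosarcoma line DLM8 under the same conditions. The labels give the genotype of every Gracie library as WT and the cell type as osteosarcoma, the cells having been plated the evening before in 6-well plates. The control cells are called untreated in the sample labels, while the treatment protocol names DMSO. No label says that the replicates were separate cultures, so a p-value here reflects differences among the libraries at hand, which may be technical. Of the 30424 genes in the dog table, 10423 passed the filter on low counts and were tested. Levels are given as CPM (counts scaled to a common library total), and fold changes are those of OMX against untreated cells, on the log2 scale unless said otherwise. Calls, higher or lower, need an adjusted p under 0.05 in edgeR's quasi-likelihood test.

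Omacetaxine, also known as homoharringtonine, is a plant alkaloid that binds the large ribosomal subunit and stops newly started ribosomes from elongating a peptide. Cells exposed to such blockers lose short-lived proteins first, among them inhibitors of transcription factors and factors that mark mRNAs for decay. Immediate early genes and NF-kB target genes are the classic examples of genes whose mRNA accumulates when protein synthesis is stopped, since the proteins that shut them off are no longer made. The MYC protein is itself short-lived, and osteosarcoma, a bone tumour common in dogs, often carries extra copies of its gene.

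The Gracie libraries held 2385102 to 3381831 counts, and genes without a symbol held 24.8% to 36.4% of them. The rows ENSCAFG00000044432 and ENSCAFG00000018897, both without a symbol, together took 3.99% to 4.32% of the counts of the untreated libraries and 13.3% to 17.4% of those with OMX. A row's level could not be read as the level of its mRNA. None of the 61 rows of cytosolic ribosomal protein genes, which are normally among the most abundant mRNAs, was among the 100 highest rows of untreated cells, the first of them ranking 164. The highest row with a symbol was TBC1D8 (10700 CPM), whose mouse counterpart overlaps the ribosomal protein gene Rpl31 on the opposite strand, and CLHC1 (6920 CPM) likewise faces Rps27a. Among the 30 highest rows with a symbol, the mouse counterparts of 22 (73.3%) overlap a gene on the opposite strand, called facing here, or end within 2 kb of one, against 56.9% of the 8455 tested rows with a counterpart. The strand setting of the counting is not given in the sources used here, no dog annotation was used, and it was not tested whether the fold change of a row is also that of its mRNA. Of the 709 facing pairs with both rows tested, 45 had both rows called, and 38 of these moved in the same direction, a share that was not compared with that of other gene pairs.

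OMX was accompanied by a broad change of the Gracie transcriptome within 6 h. Of the 10423 tested genes, 2148 were called (20.6%), 1308 of them higher (12.5%) and 840 lower (8.06%). Changes over 2-fold made up 1053 of the higher calls (10.1% of tested genes) and 541 of the lower ones (5.19%). In bulk RNA, fewer cells of a kind and less RNA per cell cannot be told apart. The CPM of both groups did not overlap in 4143 genes (39.7%). Correlations of log2 levels between libraries were 0.887 to 0.947 within a group and 0.791 to 0.841 between groups, so every library resembled those of its own group most. Among the 1326 tested genes without a symbol 200 were higher (15.1%) and 89 lower (6.71%). With scaling by library size alone the split was 1084 higher and 1204 lower, so that 47.4% of the calls were higher in place of 60.9%, and the median of all genes moved from -0.006 to -0.137. Changes are therefore relative to the median gene. Without OMX replicate 2 the calls fell to 827 higher and 395 lower, 358 of the latter over 2-fold, and the lower calls numbered 495 without untreated replicate 2 and 553 without OMX replicate 3.

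**Figure D1:**
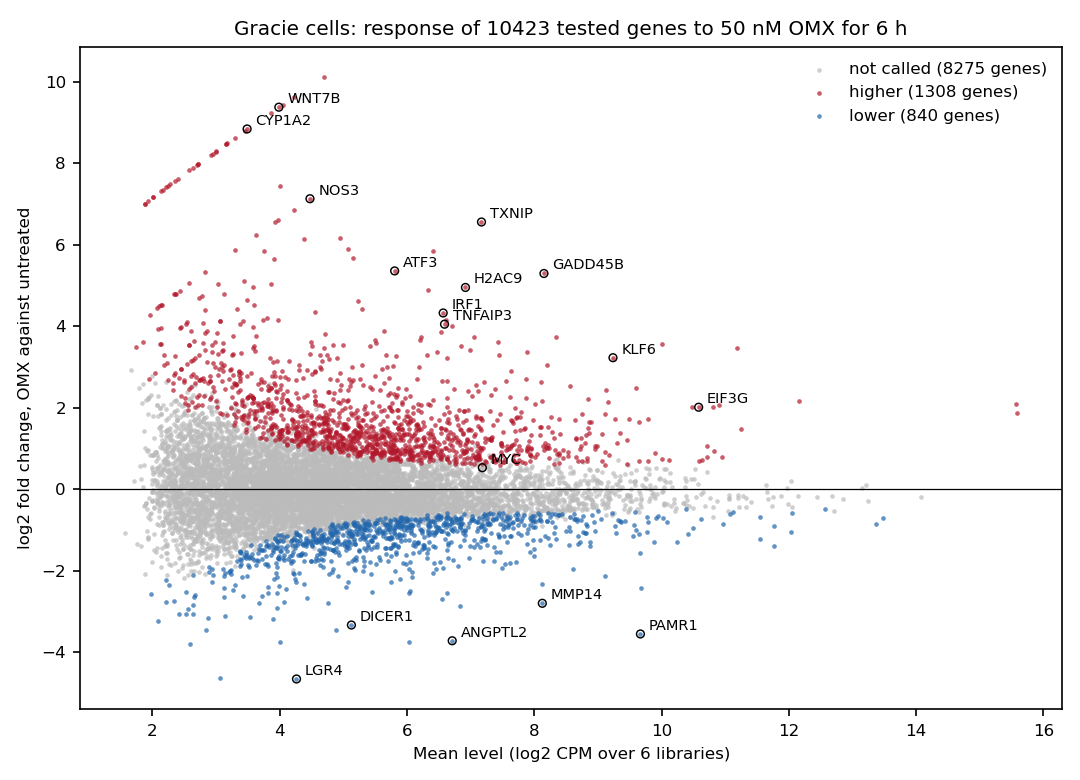
Mean level over the 6 libraries (log2 CPM, horizontal) and log2 fold change of OMX against untreated (vertical) of the 10423 tested genes, with 1308 called higher in red, 840 called lower in blue, and some named genes circled. The diagonal line of red points at the upper left holds genes with 0 untreated counts, whose fitted fold change depends on the prior count and is no measurement, while MYC lies among the genes not called and PAMR1, MMP14 and ANGPTL2 lie well below 0 at high levels.

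Since the title of the series speaks of reduced c-Myc, the MYC row was compared first. The row counts RNA, and the level of the MYC protein was not measured in these libraries. MYC (ENSCAFG00000001086), the proto-oncogene transcription factor, held 77.8, 131 and 148 CPM in the untreated libraries and 128, 156 and 228 CPM with OMX. The groups overlapped, since the lowest OMX library lay below the highest untreated libraries. The level was 119 ± 36.4 CPM without OMX and 171 ± 51.8 CPM with it (SD, n = 3), and the log2 fold change of 0.52 (SE 0.27) had an adjusted p of 0.19. An exact two-sided permutation test of the 6 CPM values gave p = 0.3, where 0.1 is the smallest p that 3 against 3 libraries allow. No gene faces Myc in the mouse annotation.

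Genes around MYC moved in both directions. Their higher shares were near the 12.5% of all genes, and their lower shares, of few members, were above the 8.06% of all genes. Among 8 tested genes of the MYC network, which share the MAX dimer partner, 1 was higher and 1 lower (12.5% each). The median was -0.08, against -0.006 over all tested genes. MGA, a MAX-binding repressor, rose from 18.3 ± 7.16 to 44.01 ± 5.64 CPM (log2 fold change 1.26 with SE 0.33, adjusted p = 0.0147), but did not pass when untreated replicate 2, OMX replicate 2 or OMX replicate 3 was left out (adjusted p = 0.0585, 0.0563 and 0.0626). MAX itself fell from 40.1 ± 7.42 to 19.3 ± 8.57 CPM (log2 fold change -1.06 with SE 0.35, adjusted p = 0.0462), a call kept without OMX replicate 1 and lost without any other library (adjusted p = 0.0587 to 0.148). Of 36 tested MYC target genes 4 were higher (11.1%) and 5 lower (13.9%), with a median of -0.24. HK2, the hexokinase gene, held 87.1, 68.9 and 56.1 CPM in the untreated libraries and 24.6, 15.7 and 19.2 CPM with OMX. Its groups did not overlap (log2 fold change -1.84 with SE 0.28, adjusted p = 0.000447). The cyclin D2 gene CCND2 fell from 83.7 ± 2.65 to 28.7 ± 5.08 CPM, a log2 fold change of -1.55 (SE 0.24). PPRC1, a coactivator of mitochondrial gene expression, rose by 1.16 (SE 0.20), while LDB1, which faces it in mouse and whose row held 0.252 times its level, fell by 1.02.

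The largest rises began from rows at or near 0. The Wnt ligand gene WNT7B had 0 counts over the 3 untreated libraries and 260 with OMX, at least 75.9-fold higher when the untreated group is set to a floor of 3 counts. CYP1A2, a cytochrome P450 of drug metabolism, went from 0 to 182 counts (at least 53.2-fold higher). From 0 counts there also rose H2AC17, a histone H2A gene, to 160 (at least 46.7-fold higher), SDK2, a cell adhesion gene, to 147 (at least 42.9-fold higher) and MAP3K9, a kinase upstream of JNK, to 141 (at least 41.2-fold higher). With 2 untreated counts each, NOS3, the endothelial nitric oxide synthase gene, had a count ratio of 167 (95% interval 45.9 to 1380) and the ubiquitin ligase gene NEURL3 of 136 (37.4 to 1130). ARRDC4, an arrestin-domain gene that restrains glucose uptake, had a ratio of 112 (30.6 to 927) and the deubiquitinase gene OTUD7A of 110 (30.2 to 917). Each of these 9 genes held at least 9.44 CPM in each OMX library and at most 0.775 CPM in any untreated library. Intervals and bounds cover counting error only. Even values made up 70.0% of the nonzero counts, and with counts halved, as if both mates of a pair had been counted apart, the bounds of the called genes with 0 counts were 0.498 to 0.52 times as high. The intervals of the ratios were computed from the counts as deposited and not from halved counts. For NOS3, NEURL3, ARRDC4 and OTUD7A the 2 untreated counts lay in 1 library each.

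Genes with slightly more untreated counts also rose steeply, although 2 untreated libraries each were at 0 for ISG20 and CLU. TXNIP, a thioredoxin-binding relative of ARRDC4 that also limits glucose uptake, held 6.196, 0.389 and 2.32 CPM in the untreated libraries and 398, 291 and 162 CPM with OMX. The lowest OMX library lay far above the highest untreated library, and the mean rose 95.5-fold (log2 fold change 6.55 with SE 0.53, adjusted p = 3.01e-06). ISG20, an exonuclease gene first described as interferon-induced, held 0, 2.34 and 0 CPM in the untreated libraries and 59.9, 55.7 and 61.6 CPM with OMX. Its groups did not overlap (log2 fold change 6.17 with SE 0.62, adjusted p = 2.17e-05). CLU, the gene of the secreted chaperone clusterin, rose from 1.03 ± 1.79 to 64.1 ± 50.9 CPM (log2 fold change 5.90 with SE 0.81, adjusted p = 0.000231), with OMX replicate 3 well above the other OMX libraries.

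The genes with the largest falls encode secreted and surface proteins, intracellular enzymes and regulators of transcription. PAMR1 (ENSCAFG00000006865), a secreted protein with a peptidase domain and the most abundant row of this group, held 1287, 1650 and 1560 CPM in the untreated libraries and 95.2, 166 and 121 CPM with OMX. All OMX libraries lay far below the untreated ones, and the mean was 11.8-fold lower (log2 fold change -3.56 with SE 0.24, adjusted p = 9.11e-07). MMP14, the membrane-bound collagenase that activates MMP2, held 656, 404 and 404 CPM in the untreated libraries and 75.5, 74.7 and 59.6 CPM with OMX, with no overlap and a log2 fold change of -2.80 (SE 0.24). ANGPTL2, a secreted angiopoietin-like protein, held 241, 203 and 137 CPM in the untreated libraries and 15.6, 16.3 and 12.1 CPM with OMX. The mean was 13.2-fold lower (log2 fold change -3.72 with SE 0.27, adjusted p = 1.45e-06). The facing row RALGPS1, at 0.0402 times its level, was not called, but at 2.065 CPM untreated it was too low to show a like fall. FAM20C, the Golgi kinase that phosphorylates secreted proteins of bone and teeth, held 133, 128 and 101 CPM in the untreated libraries and 17.2, 7.26 and 3.26 CPM with OMX, a log2 fold change of -3.74 (SE 0.42). FSTL1, a secreted glycoprotein gene, fell from 53 ± 23.6 to 4.96 ± 3.88 CPM (-3.45 (SE 0.52)). DICER1, the RNase that makes mature microRNAs, held 80.5, 54.1 and 53.4 CPM in the untreated libraries and 4.11, 6.05 and 8.14 CPM with OMX. Its OMX mean was 10.3-fold lower (log2 fold change -3.34 with SE 0.34, adjusted p = 2.2e-05). LGR4, a receptor for R-spondins in Wnt signalling, had the lowest fitted fold change among the tested genes, going from 35.95 ± 3.74 to 1.42 ± 1.32 CPM (log2 fold change -4.66 with SE 0.60, adjusted p = 0.000151). Further falls were those of the uncharacterised C30H15orf39 (-3.75), the atypical E2F repressor gene E2F8 (-3.19), the GD3 ganglioside synthase gene ST8SIA1 (-3.14), the transcription factor gene ZNF395 (-2.92) and the kinase gene DYRK2 (-2.79).

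**Figure D2:**
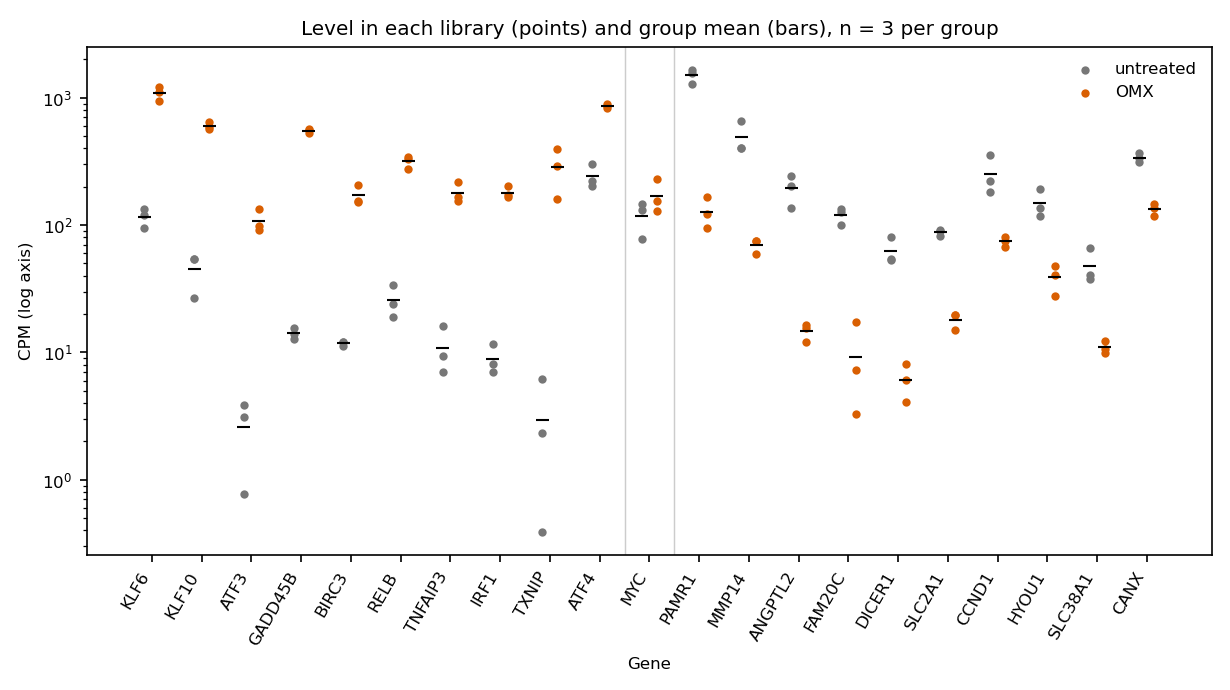
CPM in each library (points, logarithmic axis) and group means (bars) of 10 genes that rose, of MYC, and of 10 genes that fell, with 3 untreated (grey) and 3 OMX (orange) libraries each. For the 20 called genes all OMX points lie on 1 side of all untreated points, while those of MYC overlap.

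In all, 53 gene lists were described by their number of called members beside the share of all tested genes, 12.5% higher and 8.06% lower. Most counts of 1 to 4 called members in a direction (40 of 60) moved over 1.5-fold when a library was left out, so little can be read from them. Of the 26 counts of 5 or more, 12 did so, and the libraries concerned are named beside them. Several lists held 1 tested member with 3 or fewer untreated counts. They are the BCL2, glucose, hypoxia, collagen, YAP and TEAD, BMP and TGF-beta feedback, Wnt, and histone methylase and demethylase lists. Such a member passed the filter on low counts only through its OMX counts, so a call as higher was partly set by the filter. The same limit holds for called genes with somewhat more untreated counts that also needed their OMX counts to pass. Among them are TXNIP, ISG20, CLU, ATF3, GADD45A, GADD45G, BCL2A1, PARP14, ADAM8 and MERTK. In the 149 called genes taken for naming by fixed rank the CPM of both groups did not overlap, which the ranking itself largely fixes.

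**Figure D3:**
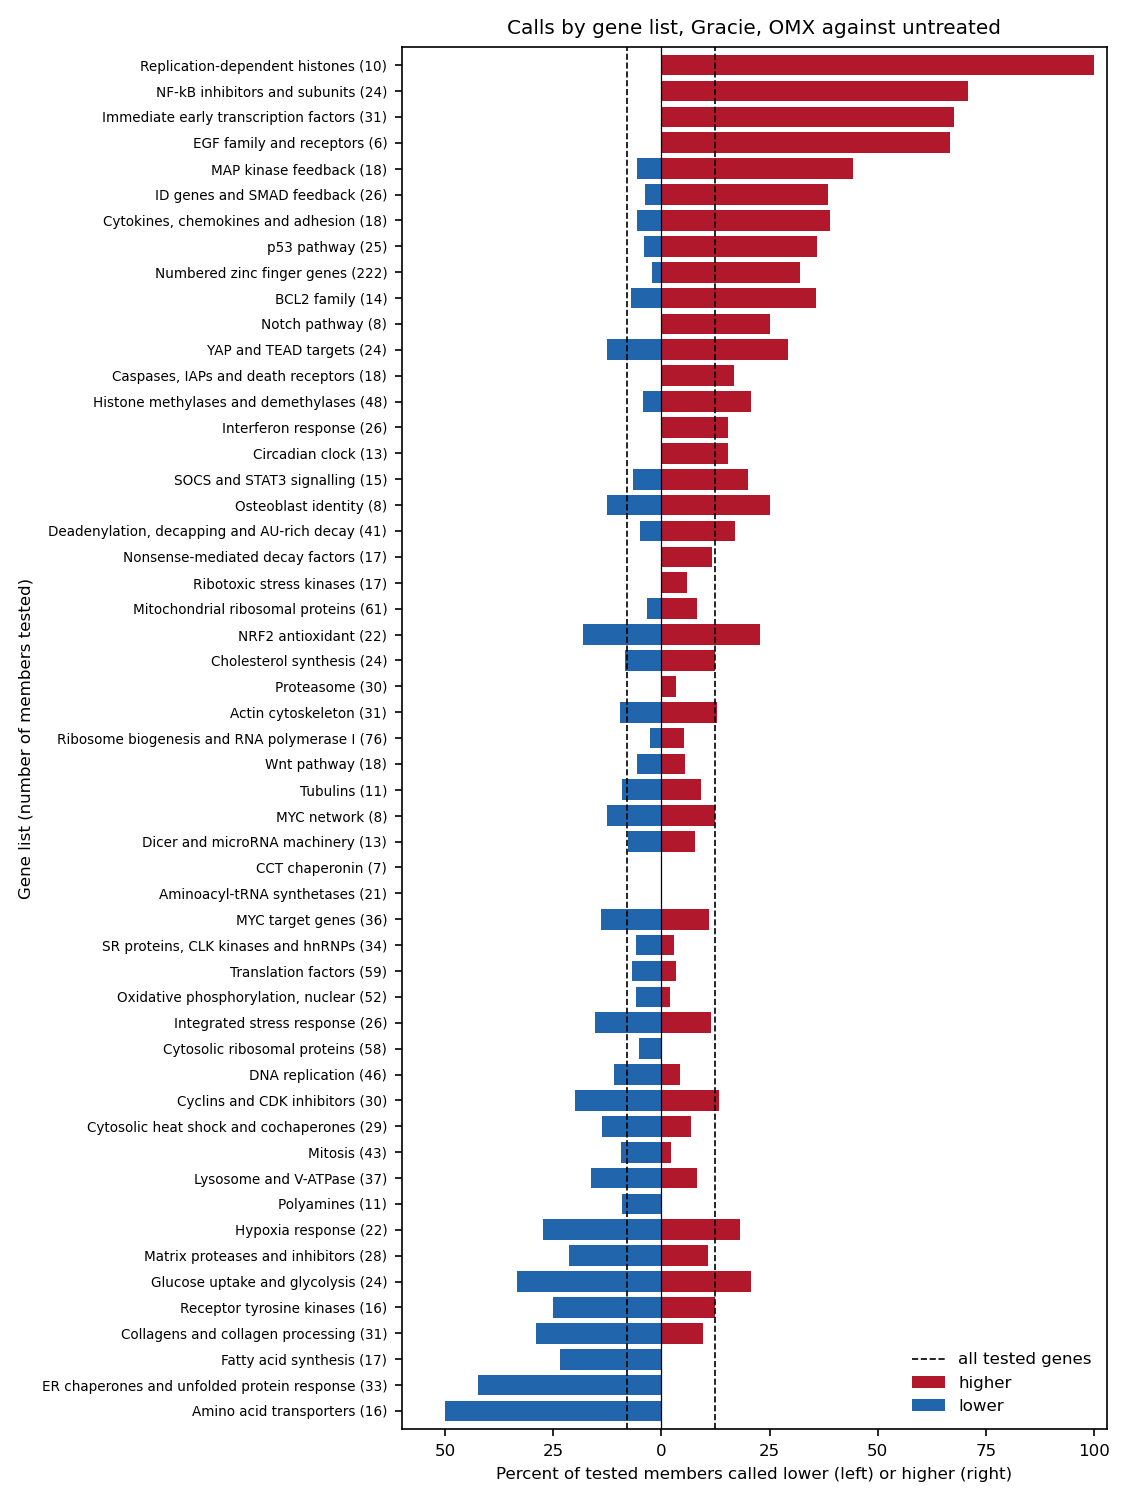
Percent of tested members called higher (red, right) and lower (blue, left) for each of the 53 gene lists, with the number tested in parentheses and dashed lines at the shares of all tested genes, 12.5% and 8.06%. Histone, NF-kB and immediate early lists reach furthest right, and amino acid transporters and ER chaperones furthest left.

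Most immediate early genes were higher, 21 of 31 tested members (67.7%) with 0 lower and a median log2 fold change of 1.76. These are genes switched on within minutes of a stimulus without new protein synthesis. KLF6 (ENSCAFG00000005354), a zinc finger transcription factor, held 121, 133 and 95.6 CPM in the untreated libraries and 1107, 949.9 and 1210 CPM with OMX. Its OMX mean was 9.35-fold higher (log2 fold change 3.22 with SE 0.21, adjusted p = 8.05e-07). KLF10, a TGF-beta-inducible repressor of the same family, held 54.6, 53.7 and 26.7 CPM in the untreated libraries and 642, 584 and 571 CPM with OMX, which was 13.3-fold higher (log2 fold change 3.73 with SE 0.27, adjusted p = 1.45e-06). ATF3, a stress-induced transcription factor, held 0.774, 3.12 and 3.87 CPM in the untreated libraries and 133, 92.3 and 98.1 CPM with OMX. The lowest OMX library was far above the highest untreated one (log2 fold change 5.35 with SE 0.39, adjusted p = 1.45e-06). Among members picked after their values were seen, the orphan nuclear receptor gene NR4A3 had a log2 fold change of 4.13 (SE 0.81), the growth-factor response gene EGR1 of 3.05 (SE 0.44), and the AP-1 genes FOSL2, JUND and JUNB of 2.43, 1.74 and 1.53. PRDX2, which faces JUNB in mouse, rose by 1.69 (SE 0.22), with 118 CPM untreated beside 139 CPM for JUNB. Higher members numbered 18 to 23 when a library was left out, and 15 of 21 members that face no gene in mouse were higher. Of 18 tested feedback and output genes of MAP kinase signalling 8 were higher and 1, the phosphatase gene DUSP4 (-1.71, picked after its value was seen), was lower (median 0.25). DUSP1, a phosphatase that switches off p38 and JNK, rose from 29.6 ± 11.9 to 114 ± 39.5 CPM (log2 fold change 1.94 with SE 0.32, adjusted p = 0.000882). The facing row ERGIC1, at 0.639 times its level, was not called. IER3, an anti-apoptotic early response gene, rose by 1.68 (SE 0.28) and LIF, a cytokine of the interleukin-6 family, by 1.56 (SE 0.21).

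NF-kB genes formed the list with the largest share of higher members after the histones, 17 of 24 tested (70.8%) with 0 lower (median 1.70). NF-kB dimers are held in the cytoplasm by inhibitors whose genes they induce in turn. TNFAIP3, the ubiquitin-editing enzyme A20 that restrains the pathway, held 16.3, 9.34 and 6.97 CPM in the untreated libraries and 168, 155 and 218 CPM with OMX. No library overlapped, and the mean was 16.6-fold higher (log2 fold change 4.05 with SE 0.31, adjusted p = 1.98e-06). BIRC3, an inhibitor of apoptosis and ubiquitin ligase of TNF receptor complexes, held 12.01, 12.1 and 11.2 CPM in the untreated libraries and 154, 152 and 208 CPM with OMX, 14.5-fold higher (log2 fold change 3.86 with SE 0.25, adjusted p = 8.05e-07). RELB, a subunit of the non-canonical pathway, held 34.1, 24.1 and 18.97 CPM in the untreated libraries and 332, 275 and 340.2 CPM with OMX, 12.3-fold higher (log2 fold change 3.62 with SE 0.25, adjusted p = 1.09e-06). The inhibitor gene NFKBIA, picked after its values were seen, had a log2 fold change of 2.02 (SE 0.28), and the subunit genes NFKB1, NFKB2 and RELA of 1.73, 2.17 and 1.12. PSD, which faces NFKB2 in mouse, rose by 1.59 (SE 0.34), with 12.4 CPM untreated beside 101 CPM for NFKB2. Higher members numbered 15 to 18 when a library was left out, and 9 of the 13 that face no gene in mouse were higher.

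Of 18 tested cytokine, chemokine and adhesion genes 7 were higher and 1 was lower (median 0.90). CSF1, the macrophage growth factor, held 54.99, 37.4 and 40.2 CPM in the untreated libraries and 246, 218 and 181 CPM with OMX. Its groups did not overlap (log2 fold change 2.28 with SE 0.23, adjusted p = 2.22e-05). SELE, the endothelial adhesion molecule E-selectin, went from 0 to 90 counts, at least 26.3-fold higher. The lower member was TNF, picked after its value was seen, which held 30.6, 28.8 and 24.8 CPM in the untreated libraries and 2.87, 2.12 and 10.1 CPM with OMX (log2 fold change -2.46 with SE 0.51, adjusted p = 0.00402), opposite to CXCL8, the neutrophil chemokine, at 2.65. Of 38 list genes in the table, 18 passed the filter, and SELE and CSF2 passed it only by their OMX counts.

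Interferon-response genes were higher at a share close to that of all genes, 4 of 26 (15.4%) with 0 lower (median 0.40). IRF1, a transcription factor that NF-kB and interferon both induce, held 11.6, 7.01 and 8.13 CPM in the untreated libraries and 201, 165 and 171 CPM with OMX. It was 20.1-fold higher (log2 fold change 4.32 with SE 0.27, adjusted p = 6.78e-07), among the smallest p-values of the table. PARP14, an ADP-ribosyltransferase, rose by 2.70 (SE 0.54). The remaining higher members were ISG20, described above, and the interferon-inducible gene IFI6 (3.1, picked after its value was seen). Of 15 genes of SOCS and STAT3 signalling 3 were higher and 1, the cytokine receptor gene OSMR (-1.20, picked after its value was seen), was lower. The kinase gene PIM1 rose by 2.18 (SE 0.33), the transcriptional repressor gene BCL6 by 1.86 (SE 0.35) and the kinase gene JAK2 by 1.02 (SE 0.26), the last call being lost with either untreated replicate 2 or OMX replicate 1 left out (adjusted p = 0.0531 and 0.0767).

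Growth arrest and DNA damage genes were often higher, with 9 of 25 tested members of the p53 list (36.0%) and 1, TP73 (-1.88, picked after its value was seen), lower (median 1.18). Among the higher members, PMAIP1 had 2 untreated counts and passed the filter on low counts through its OMX counts. GADD45A and GADD45G, with more untreated counts, also needed their OMX counts to pass it. All 3 tested GADD45 genes, which encode small stress proteins that bind MAP kinase kinase kinases and PCNA, were higher. GADD45B (ENSCAFG00000019386) had the smallest p of all tested genes, and held 15.5, 14.02 and 12.8 CPM in the untreated libraries and 559, 530.2 and 570.5 CPM with OMX. Its OMX libraries lay within a narrow band, 39.3-fold above the untreated mean (log2 fold change 5.29 with SE 0.22, adjusted p = 1.3e-08). GADD45A held 1.55, 8.56 and 8.52 CPM in the untreated libraries and 82.9, 80.5 and 110.1 CPM with OMX, a log2 fold change of 3.87 (SE 0.41), and GADD45G rose from 3.37 ± 2.51 to 73.3 ± 24.8 CPM (4.43 (SE 0.44)). CDKN1A, the cell cycle inhibitor p21, held 52.3, 31.5 and 44.1 CPM in the untreated libraries and 203, 141 and 129 CPM with OMX. It was 3.70-fold higher (log2 fold change 1.88 with SE 0.26, adjusted p = 0.000228). The count of higher p53 list members was 7 to 9 when a library was left out.

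In the BCL2 family, which sets the threshold of apoptosis, 5 of 14 tested genes were higher and 1, BAK1 (-1.38, picked after its value was seen), was lower (median 0.74). MCL1, a short-lived survival protein, held 30.98, 40.1 and 31.7 CPM in the untreated libraries and 91.96, 88.1 and 85.7 CPM with OMX. The groups did not overlap (log2 fold change 1.37 with SE 0.23, adjusted p = 0.00089). PMAIP1, the gene of the pro-apoptotic protein NOXA that binds MCL1, rose from 2 counts to 59, with a ratio of 25.8 (95% interval 6.85 to 218). The survival gene BCL2A1 rose by 2.89 (SE 0.64), a call lost without OMX replicate 2 (adjusted p = 0.0501). Without that library 1 member was higher, and without OMX replicate 1 there were 3. Caspases, IAPs and death receptors had 3 of 18 higher and 0 lower. Besides BIRC3 these were the TWEAK receptor gene TNFRSF12A (1.38 (SE 0.19)) and CFLAR, which blocks caspase 8 (1.94 (SE 0.43)). Of 17 kinases and partners of the ribotoxic stress response, which senses stalled ribosomes and signals through p38 and JNK, 1 was higher. This was MAP2K3, an activator of p38, which held 78.6, 68.9 and 50.7 CPM in the untreated libraries and 278, 225 and 245 CPM with OMX (log2 fold change 1.91 with SE 0.22, adjusted p = 5.83e-05).

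Members of the integrated stress response were called in both directions, the higher ones at about the share of all genes. This response to eIF2 alpha phosphorylation raises ATF4, which in turn induces amino acid transporter, tRNA synthetase and serine synthesis genes. Of 26 tested members 3 were higher (11.5%) and 4 lower (15.4%), with a median of -0.19. ATF4 itself held 202, 301 and 223 CPM in the untreated libraries and 899.9, 858 and 838 CPM with OMX. Its mean was 3.58-fold higher with no overlap (log2 fold change 1.84 with SE 0.20, adjusted p = 3.71e-05). PPP1R15A, which directs the dephosphorylation of eIF2 alpha, rose from 17.3 ± 5.57 to 85.6 ± 13.9 CPM (2.30 (SE 0.29)). TXNIP, the remaining higher member, is also a glucose-regulated gene. The lower members, picked after their values were seen, were the mTORC1 inhibitor gene DDIT4 (-2.16), the serine and glycine synthesis genes PSAT1 (-1.42) and SHMT2 (-0.76), and the tRNA exporter gene XPOT (-0.73).

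Amino acid transporter genes had the largest share of lower members of any list, 8 of 16 tested (50.0%) with 0 higher (median -0.87). SLC38A1, a glutamine transporter, held 65.8, 40.5 and 37.9 CPM in the untreated libraries and 9.85, 10.6 and 12.4 CPM with OMX. The OMX libraries lay far below the untreated ones, with no overlap (log2 fold change -2.13 with SE 0.32, adjusted p = 0.000459). SLC7A5, the light chain of the large neutral amino acid transporter, held 135, 164 and 253 CPM in the untreated libraries and 57.1, 82.01 and 71.7 CPM with OMX (log2 fold change -1.39 with SE 0.26, adjusted p = 0.00187). The glutamine transporter gene SLC1A5 fell from 196 ± 74.1 to 77.8 ± 14.5 CPM (-1.34 (SE 0.28)). Without OMX replicate 2 the lower members numbered 5, and 6 of the 11 that face no gene in mouse were lower. None of the 21 aminoacyl-tRNA synthetase genes was called (median -0.18). GARS1, that with the smallest p, held 154 ± 5.88 CPM without OMX and 105 ± 17.4 CPM with it (adjusted p = 0.0697), and passed the threshold with scaling by library size alone (adjusted p = 0.0386).

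Chaperones and other genes of the endoplasmic reticulum (ER) were lower, 14 of 33 tested (42.4%) with 0 higher (median -0.69). The proteins they encode fold and modify secreted proteins, and the unfolded protein response raises them. HYOU1, an ER-resident HSP70-like chaperone, held 118, 136 and 193 CPM in the untreated libraries and 27.9, 48.1 and 40.7 CPM with OMX. The mean was 3.83-fold lower (log2 fold change -1.93 with SE 0.27, adjusted p = 0.000233). Calnexin (CANX), which holds glycoproteins during folding, held 368, 334 and 312 CPM in the untreated libraries and 136, 148 and 118 CPM with OMX (log2 fold change -1.34 with SE 0.19, adjusted p = 0.000313), and SEC61A1, the pore of the ER translocon, held 510.4, 461 and 472 CPM in the untreated libraries and 243, 257 and 213 CPM with OMX (-1.02 (SE 0.18)). All 3 genes fell with no overlap between groups. HSPA5, the main ER chaperone BiP, picked after its values were seen, had a log2 fold change of -0.99 (SE 0.21). Without untreated replicate 2 or without OMX replicate 2 the lower members numbered 9, and 6 of the 18 that face no gene in mouse were lower.

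Cytosolic heat shock genes had 2 of 29 higher and 4 lower (median -0.27). HSPA8, the constitutive HSP70, held 1350, 2015 and 2192 CPM in the untreated libraries and 672, 873 and 1065 CPM with OMX (log2 fold change -1.09 with SE 0.22, adjusted p = 0.00369), and its relative HSPA4L fell by 0.90 (SE 0.20). BAG3, a cochaperone of HSP70, rose by 1.29 (SE 0.31), a call lost without OMX replicate 3 (adjusted p = 0.0514). None of the 7 subunit genes of the CCT chaperonin, which folds actin and tubulin, was called. CCT8, that with the smallest p, held 96.4 ± 8.98 CPM without OMX and 63.5 ± 14.2 CPM with it (adjusted p = 0.0782, and 0.045 with scaling by library size alone). Among 11 tubulin genes TUBA1B, the main alpha-tubulin gene of dividing cells, fell from 1898 ± 349 to 971 ± 201 CPM (-0.97 (SE 0.20)), the centriolar delta-tubulin gene TUBD1 rose by 2.02 (SE 0.44), and 9 were not called.

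**Figure D4:**
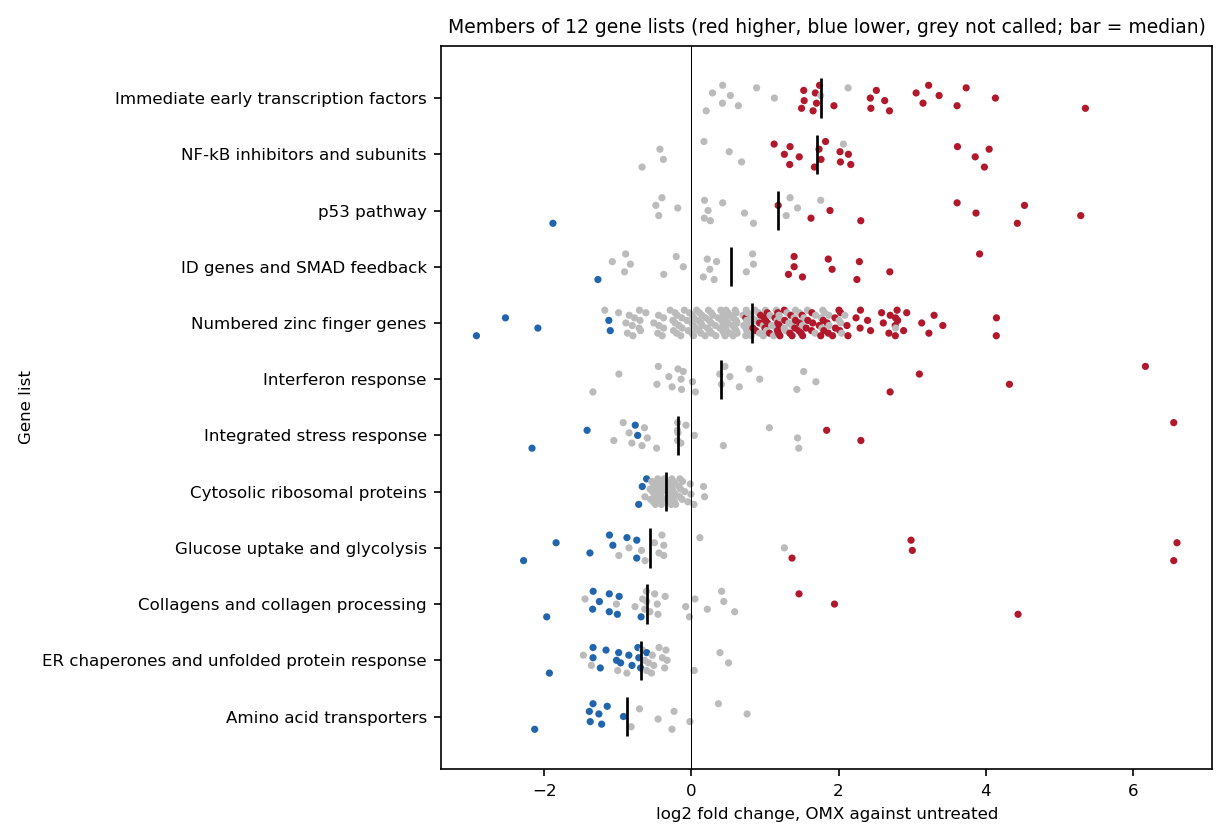
Log2 fold change of OMX against untreated (horizontal) of every tested member of 12 gene lists (rows), coloured red where called higher, blue where called lower and grey where not called, with a bar at the median. The immediate early and NF-kB members lie almost all above 0, the cytosolic ribosomal protein genes form a tight cluster just below 0, and the amino acid transporter and ER chaperone members lie mostly below 0.

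With the main scaling, rows of ribosomal protein and translation factor genes were called at shares below those of all genes, 12.5% higher and 8.06% lower. Whether the fold changes of these rows are those of their mRNAs was not tested. Of 58 tested cytosolic ribosomal protein genes 0 were higher and 3 lower (5.17%), with a median of -0.34. RPL7 fell by 0.72 (SE 0.19), RPL26 by 0.67 (SE 0.19) and RPL14 by 0.61 (SE 0.19). These calls rested on few libraries: RPL7 was lost without untreated replicate 2, OMX replicate 1 or OMX replicate 2 (adjusted p = 0.0505, 0.0604 and 0.0559), RPL26 without any of these or OMX replicate 3 (0.0537 to 0.0785), and RPL14 without any library but untreated replicate 1 (0.0518 to 0.147). Under the main scaling 3 of the 58 genes had a fitted fold change above 0. Scaling by library size alone gave 14 lower ribosomal protein genes of the 58, beside 1204 lower genes among all 10423 tested. With that scaling their share of lower calls was thus above that of all genes. The medians stayed close to 0 for 59 translation factors (2 higher, 4 lower, median -0.15). EIF3G, a subunit of the initiation factor eIF3, held 549.9, 609 and 672 CPM in the untreated libraries and 3064, 2550 and 1755 CPM with OMX. The OMX libraries lay far above the untreated ones (log2 fold change 2.01 with SE 0.21, adjusted p = 3.3e-05). The other higher member was EIF4EBP3, picked after its value was seen (1.02). EIF4EBP2, an inhibitor of the cap-binding protein eIF4E, held 41.05, 39.7 and 52.2 CPM in the untreated libraries and 13.1, 10.3 and 9.12 CPM with OMX, 4.09-fold lower (log2 fold change -2.03 with SE 0.31, adjusted p = 0.00046), and PABPC1, which encodes the protein that coats poly(A) tails, fell from 864 ± 72.7 to 504 ± 10.4 CPM (-0.78 (SE 0.17)).

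Of 76 genes of ribosome biogenesis and RNA polymerase I 4 were higher and 2 lower (median 0.16). TAF1C, a subunit of the polymerase I initiation factor SL1, rose by 1.78 (SE 0.32), as did DNAAF1 facing it in mouse (3.88). UBTF, the upstream binding factor of the same polymerase, fell from 83.8 ± 6.67 to 34.4 ± 6.41 CPM (log2 fold change -1.28 with SE 0.24, adjusted p = 0.00181). NOC2L, a factor of pre-ribosome maturation, rose by 0.74 (SE 0.20), with SAMD11 facing it at 1.42, and did not pass when untreated replicate 2, OMX replicate 1 or OMX replicate 2 was left out (adjusted p = 0.0996, 0.0623 and 0.0628). The proteasome list had 1 of 30 members higher and 0 lower, the ATPase subunit gene PSMC1 (0.87 (SE 0.20)). Mitochondrial ribosomal protein genes had 5 of 61 higher and 2 lower (median 0.18). MRPL14 fell by 1.28 (SE 0.28), and TMEM63B, which faces it in mouse with a row of 1.96 times its level, fell by 2.06. MRPL10 rose by 0.82 (SE 0.22) and MRPL38 by 0.96 (SE 0.29), calls lost without untreated replicate 2 (adjusted p = 0.0736 and 0.109) or OMX replicate 3 (0.0867 and 0.141), that of MRPL38 also without untreated replicate 1 (0.0701) or OMX replicate 1 (0.0619) and with scaling by library size alone (0.0539). The higher members of this list numbered 2, 0 and 3 without untreated replicates 1, 2 and 3, and 1, 2 and 1 without OMX replicates 1, 2 and 3. Of 52 nuclear genes of oxidative phosphorylation 1 was higher and 3 lower (median -0.15). UQCRC1, a core subunit of complex III, rose from 1100 ± 102 to 2272 ± 219 CPM (1.05 (SE 0.17)), while the ATP synthase genes ATP5F1C and ATP5F1B fell by 1.15 (SE 0.23) and 0.73 (SE 0.19), the latter call being lost with either untreated replicate 2 or OMX replicate 2 left out (adjusted p = 0.0579 and 0.0692).

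The cyclin D genes CCND1 and CCND2 fell, and the cell cycle inhibitor CDKN1A rose. Of 30 tested cyclin, CDK and E2F genes 6 were lower and 4 higher (median -0.09). CCND1, the gene of cyclin D1 that opens the way through G1, held 357, 223 and 182 CPM in the untreated libraries and 80.5, 67.5 and 75.3 CPM with OMX. The mean was 3.42-fold lower (log2 fold change -1.77 with SE 0.25, adjusted p = 0.000303), while LTO1, which faces it in mouse at 0.134 times its level, rose by 0.97. CDK4, the partner kinase of the D cyclins, picked after its values were seen, held 98.4, 118 and 151 CPM in the untreated libraries and 55.01, 34.8 and 49.5 CPM with OMX (log2 fold change -1.40 with SE 0.25, adjusted p = 0.00144). Of 43 mitosis genes 1 was higher (2.33%) and 4 were lower (9.3%), the latter close to the 8.06% of all genes (median 0.02). CDC25B, a phosphatase that activates CDK1, fell from 118 ± 13.1 to 42.6 ± 10.96 CPM (-1.46 (SE 0.24)), FOXM1, the transcription factor of G2 and M phase genes, by 1.51 (SE 0.32) and topoisomerase gene TOP2A by 0.99 (SE 0.21). DNA replication genes had 2 of 46 higher and 5 lower (median -0.38). UHRF1, which carries DNA methylation through replication, held 124, 167 and 193 CPM in the untreated libraries and 30.4, 50.2 and 63.5 CPM with OMX (log2 fold change -1.74 with SE 0.28, adjusted p = 0.000651). The helicase subunit gene MCM2 fell by 1.03 (SE 0.23) and the flap endonuclease gene FEN1 by 1.06 (SE 0.28). The MCM2 call was lost without OMX replicate 2 (adjusted p = 0.0585), and that of FEN1 without untreated replicate 1 (0.0554) or OMX replicate 1, 2 or 3 (0.0573, 0.0508 and 0.0502). Lower replication genes numbered 8 and 3 without untreated replicates 1 and 2, and 2 without OMX replicate 1 or 2.

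Replication-dependent histone genes, whose mRNAs normally end in a stem-loop and lack a poly(A) tail, were called higher in all 10 tested members. The filter kept 10 of the 53 histone genes with a row, and 5 of them had 3 or fewer counts over the untreated libraries and passed it only by their OMX counts, so the count and the fitted median of 4.82 were partly set by the filter. H2AC9, an H2A gene with counts in every library, held 4.26, 6.23 and 12 CPM in the untreated libraries and 160.1, 232 and 306 CPM with OMX. No library overlapped, and the mean was 31-fold higher (log2 fold change 4.95 with SE 0.37, adjusted p = 1.45e-06). H2AC6, also of H2A, rose from 2 counts to 108, with a ratio of 47.3 (95% interval 12.8 to 396). Histone genes of a family are near-identical copies, so reads may have been split among them, and none of the 10 could be tested among genes with no facing gene, as they lacked a mouse match by symbol.

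Glucose uptake and glycolysis genes moved in both directions at shares above those of all genes, with 8 of 24 lower (33.3%) and 5 higher (20.8%, median -0.57). SLC2A1, the glucose transporter GLUT1, held 90.6, 90.7 and 82.4 CPM in the untreated libraries and 19.7, 15.1 and 19.6 CPM with OMX. The untreated and OMX libraries were far apart, with a mean 4.85-fold lower (log2 fold change -2.28 with SE 0.24, adjusted p = 3.3e-05). HK2, the first enzyme of the pathway, fell with it, as described among MYC target genes, whereas TXNIP and ARRDC4, both restraining glucose uptake, were the steepest rises of the list. Of members picked after their values were seen, the lactate exporter gene SLC16A3 had a log2 fold change of 3.00 (SE 0.39), PFKFB3, which makes the activator of phosphofructokinase, of 2.98 (SE 0.41), and the enzyme genes TPI1, PGK1, ENO1, GAPDH and GPI of -1.38, -1.07, -0.87, -0.74 and -0.74. Lower members numbered 5 without untreated replicate 2 and 3 without OMX replicate 2. Hypoxia-response genes, which overlap this list, had 6 of 22 lower and 4 higher (median -0.60). STC1, the secreted glycoprotein stanniocalcin, fell from 506 ± 65.1 to 249 ± 25.4 CPM (-1.02 (SE 0.19)), and ANGPTL4, an inhibitor of lipoprotein lipase, rose from 2 counts to 71, with a ratio of 31.1 (95% interval 8.3 to 262).

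Fatty acid synthesis genes had 4 of 17 lower (23.5%) and 0 higher (median -0.39). ACLY, which makes cytosolic acetyl-CoA from citrate, held 287, 222 and 252 CPM in the untreated libraries and 109, 116 and 114 CPM with OMX (log2 fold change -1.16 with SE 0.19, adjusted p = 0.000909), and the chain elongase gene ELOVL6 and the acyl-CoA synthetase gene ACSL5 fell by 1.49 (SE 0.28) and 1.34 (SE 0.28). Cholesterol synthesis genes were called at shares close to those of all genes, with 3 of 24 higher and 2 lower (median 0.20). SQLE, the squalene epoxidase gene, fell from 53.4 ± 15.6 to 15.9 ± 6.94 CPM (-1.75 (SE 0.35)), while MVD, the mevalonate diphosphate decarboxylase gene, rose by 1.24 (SE 0.25) and SCAP, the escort of the SREBP factors, by 0.78 (SE 0.17). The SCAP call was lost without untreated replicate 2 (adjusted p = 0.0511). NRF2 antioxidant genes had 5 of 22 higher and 4 lower (median -0.43). The peroxidase gene PRDX1 held 166, 129 and 164 CPM in the untreated libraries and 41.1, 68.7 and 30.9 CPM with OMX (log2 fold change -1.70 with SE 0.28, adjusted p = 0.000827). The autophagy receptor gene SQSTM1 rose by 1.05 (SE 0.18), as did MRNIP, facing it in mouse at 2.23 times its level (1.13), and the oxidative stress growth inhibitor gene OSGIN1 rose by 2.75 (SE 0.52). Polyamine genes had 1 of 11 lower, AMD1, which supplies the aminopropyl donor (-1.29 (SE 0.33)), a call lost without OMX replicate 3 (adjusted p = 0.0549). Lysosome and V-ATPase genes had 3 of 37 higher and 6 lower (median -0.37), of which 1 was lower without OMX replicate 2. TFE3, a transcription factor of lysosome genes, rose by 1.28 (SE 0.27), the V-ATPase accessory gene ATP6AP1 fell by 1.08 (SE 0.23) and the protease gene CTSA by 1.07 (SE 0.25). The CTSA call was lost without OMX replicate 2 (adjusted p = 0.0674), and PLTP, facing it in mouse with 3.39 times its level, fell by 0.65.

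Bone and matrix genes were checked against the labelled tumour type. Rows of the osteoblast transcription factor genes RUNX2 (17.6 ± 2.91 CPM) and MSX1 (59.3 ± 16.6 CPM) had counts in untreated cells (SD, n = 3), whereas those of the bone matrix and mineralisation genes ALPL, SPP1 and IBSP were at 0 counts there. Of 26 osteoblast genes with a row, 7 were at 0 in all libraries (DLX5, PHEX, DMP1, MEPE, TNFSF11, CDH11 and SOST) and 8 were tested. SP7, the osteoblast transcription factor osterix, held 6.196, 5.45 and 6.19 CPM in the untreated libraries and 29.1, 31.8 and 30.6 CPM with OMX. It rose 5.13-fold with little spread (log2 fold change 2.35 with SE 0.35, adjusted p = 0.000428). SPARC, the matrix protein osteonectin, held 130.1, 113 and 84.8 CPM in the untreated libraries and 40.6, 22.7 and 11.1 CPM with OMX. The mean was 4.41-fold lower (log2 fold change -2.15 with SE 0.37, adjusted p = 0.00109). ATF4, also a regulator of osteoblasts, was the other higher member, and the median of the list was 0.06. For other cell types, the summed marker levels were 2.32 to 5.06 CPM untreated and 2.46 to 7.17 CPM with OMX for 8 macrophage and monocyte genes, of which PTPRC, AIF1, FCER1G and CD74 were at 0 in all libraries. The sums for epithelial genes were 0 and 0 to 1.3 CPM, for skeletal muscle 0 to 2.32 and 1.3 to 2.87 CPM, for adipocytes 9.29 to 26.7 and 12.3 to 15.7 CPM, and for chondrocytes 4.64 to 7.36 and 11.5 to 23.8 CPM. The chondrocyte sum was higher in every OMX library. Its largest rise in mean was that of SOX5 (2.07 to 8.83 CPM, with 16.3 CPM in OMX replicate 3). SOX6 went from 1.03 to 0 CPM, and ACAN was at 1.29 CPM in both groups. COL2A1 was at 0 in every library but OMX replicate 2 (0.605 CPM). The part of the chondrocyte genes in the results was not tested. Endothelial genes summed to 19.4 to 83.6 and 43.6 to 87.4 CPM, mostly in the VWF row, and osteoclast genes to 155 to 272 and 155 to 255 CPM. The osteoclast sum lay almost all in CTSK, NFATC1 and MMP9, whose means moved in both directions. CTSK went from 122 to 79.2 CPM, NFATC1 from 52 to 111 CPM and MMP9 from 19.6 to 9.84 CPM. ACP5, DCSTAMP, OCSTAMP, CALCR and OSCAR were at 0 in all libraries. The 10 lymphocyte genes summed to 270 to 333 and 227 to 266 CPM, almost all in CD79A, which was not called, while CD3D, CD3E, CD3G, MS4A1 and CD2 were at 0 in all libraries. SELE and NOS3, both known from endothelial cells, rose from at or near 0. Of the 10 endothelial marker genes, PECAM1 (0 to 2.32 CPM untreated, 2.42 to 7.17 CPM with OMX) and CLDN5 (0 in every untreated library, 0.821 to 2.61 CPM with OMX) were also higher in every OMX library, while TEK, EMCN and EGFL7 were at 0 in all libraries. Mean levels were lower with OMX for ESAM (0.774 to 0 CPM), TIE1 (1.81 to 1.56 CPM) and CDH5 (0.516 to 0.434 CPM). Those of KDR (1.3 to 2.73 CPM) and VWF (42.4 to 46.9 CPM) were higher. Nearly all these levels lie close to 0, and the part of the endothelial genes in the results was not tested.

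Collagens and their processing enzymes were lower in 9 of 31 tested members (29.0%) and higher in 3 (median -0.61). SERPINH1, the collagen-specific ER chaperone HSP47, held 180.5, 219 and 229.9 CPM in the untreated libraries and 110.4, 73.2 and 81.5 CPM with OMX (log2 fold change -1.25 with SE 0.22, adjusted p = 0.00131). COL4A1, the basement membrane collagen chain, fell from 44.5 ± 15.1 to 11.4 ± 2.696 CPM (-1.96 (SE 0.35)), while COL4A2, which faces it in mouse, was not called. COL15A1, another basement membrane zone collagen, held 56.5, 37.8 and 58.5 CPM in the untreated libraries and 172, 207 and 209 CPM with OMX, in the opposite direction (log2 fold change 1.94 with SE 0.23, adjusted p = 6.71e-05). The lower members numbered 5 without untreated replicate 2 and 3 without OMX replicate 2. Matrix proteases and inhibitors had 6 of 28 lower and 3 higher (median -0.38), with 3 lower without OMX replicate 2 or OMX replicate 3. Beside MMP14, PLAUR, the urokinase receptor gene, held 529, 394 and 392 CPM in the untreated libraries and 122, 188 and 199.7 CPM with OMX (log2 fold change -1.37 with SE 0.23, adjusted p = 0.000909). ADAM8, a metalloprotease gene, rose from 0.648 ± 0.811 to 11.6 ± 2.44 CPM (4.07 (SE 0.84)). Actin cytoskeleton genes had 4 of 31 higher and 3 lower (median -0.23). The calponin gene CNN2 rose by 1.13 (SE 0.20) and MRTFA, the actin-sensing coactivator of SRF, by 1.28 (SE 0.23). The beta-actin gene ACTB fell from 3662 ± 304 to 2290 ± 328 CPM (-0.68 (SE 0.17)), a call lost without OMX replicate 2 (adjusted p = 0.104).

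Among signalling pathways, genes of BMP and TGF-beta feedback were higher in 10 of 26 tested members (38.5%) and lower in 1, TGFB2 (-1.27, picked after its value was seen; median 0.55). Of the tested members, 1 had 3 or fewer untreated counts and passed the filter on low counts only through its OMX counts. ID1 and ID3 encode inhibitors of basic helix-loop-helix factors and are direct SMAD targets. ID3 held 20.9, 28.8 and 17.03 CPM in the untreated libraries and 151, 95.02 and 79.8 CPM with OMX. It was 4.88-fold higher (log2 fold change 2.28 with SE 0.30, adjusted p = 0.000166). ID1 held 48.02, 48.3 and 46.5 CPM in the untreated libraries and 136, 121 and 149.9 CPM with OMX, a log2 fold change of 1.51 (SE 0.21) with little spread, and SMURF1, the ubiquitin ligase that removes SMADs, rose from 8.799 ± 3.26 to 57.2 ± 6.34 CPM (2.70 (SE 0.32)). Of 24 tested targets of YAP and TEAD, 7 were higher and 3 lower (median 0.24). AMOTL2, an angiomotin that retains YAP in the cytoplasm, held 114, 65.8 and 106 CPM in the untreated libraries and 394, 275 and 310.2 CPM with OMX (log2 fold change 1.77 with SE 0.24, adjusted p = 0.000225), and the kinase gene NUAK2 rose by 1.47 (SE 0.23). In the EGF family 4 of 6 tested genes were higher and 0 lower. The ligand gene EREG rose from 11.2 ± 5.69 to 77.6 ± 22.2 CPM (2.78 (SE 0.36)). Of the receptor's own inhibitors, ERRFI1 held 321, 271 and 317 CPM in the untreated libraries and 989, 787 and 530.1 CPM with OMX (log2 fold change 1.34 with SE 0.23, adjusted p = 0.000989) and LRIG1 rose by 1.35 (SE 0.25), but SLC25A26, which faces LRIG1 in mouse with 7.17 times its level, rose by 1.46. Receptor tyrosine kinase genes had 2 of 16 higher and 4 lower. EPHA2, an ephrin receptor, held 239, 221 and 218 CPM in the untreated libraries and 588, 634 and 884 CPM with OMX (log2 fold change 1.64 with SE 0.20, adjusted p = 0.000112), whereas its relative EPHB4 held 40.7, 40.9 and 34.8 CPM in the untreated libraries and 11.9, 10.9 and 11.7 CPM with OMX (log2 fold change -1.75 with SE 0.30, adjusted p = 0.00112). The phagocytic receptor gene MERTK rose by 3.1 (SE 0.67), a call lost without OMX replicate 3 (adjusted p = 0.0547). In the Wnt list 1 of 18 tested genes was higher and 1 lower, WNT7B and LGR4, described above. Notch pathway genes had 2 of 8 higher and 0 lower, the coactivators MAML1 (1.35 (SE 0.25)) and MAML2 (1.01 (SE 0.23)).

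Zinc finger genes, many of them KRAB repressors with short-lived mRNAs, were higher in 71 of 222 tested numbered members (32.0%) and lower in 5 (2.25%, median 0.82). ZNF697 held 758, 742 and 638 CPM in the untreated libraries and 2871, 2829 and 2883 CPM with OMX. Its OMX libraries were nearly equal, 4.02-fold above untreated (log2 fold change 2.01 with SE 0.17, adjusted p = 4.69e-06). ZBTB7A, a repressor of glycolysis and other genes, held 37.2, 68.5 and 56.1 CPM in the untreated libraries and 229, 247 and 320 CPM with OMX, a log2 fold change of 2.30 (SE 0.25), and ZNF608 rose from 7.75 ± 2.78 to 50.1 ± 11.8 CPM (2.68 (SE 0.35)). Without OMX replicate 2 the higher members numbered 42, and without OMX replicate 1 the lower ones numbered 3. Of the 27 members that face no gene in mouse 8 were higher. Histone methylases and demethylases had 10 of 48 higher (20.8%) and 2 lower (median 0.34), with 1 tested member at 3 or fewer untreated counts. ASH1L, an H3K36 methylase gene, held 96.8, 80.98 and 53.4 CPM in the untreated libraries and 297, 268 and 261 CPM with OMX (log2 fold change 1.84 with SE 0.23, adjusted p = 0.000134), KDM6B, an H3K27 demethylase induced by NF-kB, rose by 1.65 (SE 0.26), and the demethylase gene KDM2B fell by 1.42 (SE 0.23) with RNF34, facing it in mouse, at -1.33. Circadian clock genes had 2 of 13 higher, NR1D2, the repressor REV-ERB beta (1.73 (SE 0.31)), and BHLHE40 (1.46 (SE 0.39)), a call lost with either untreated replicate 2 or OMX replicate 1 left out (adjusted p = 0.103 and 0.095) or 2 (0.0534), and with DESeq2 (0.082).

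Genes of mRNA decay were called at shares near those of all genes, 12.5% higher and 8.06% lower. Deadenylation, decapping and AU-rich decay genes had 7 of 41 higher (17.1%) and 2 lower (4.88%, median 0.08), with 4 higher without OMX replicate 3. ZC3H12A, the RNase regnase-1 that destroys cytokine mRNAs, held 3.87, 14.8 and 7.74 CPM in the untreated libraries and 45.2, 50.5 and 58.97 CPM with OMX (log2 fold change 2.55 with SE 0.40, adjusted p = 0.000562). CNOT4, a ubiquitin ligase linked to the deadenylase complex, rose by 1.5 (SE 0.23). PAN2, the catalytic deadenylase subunit that starts poly(A) shortening, held 467, 369.5 and 325 CPM in the untreated libraries and 139, 128 and 102 CPM with OMX, 3.15-fold lower with no overlap (log2 fold change -1.65 with SE 0.21, adjusted p = 0.000145). Nonsense-mediated decay factors had 2 of 17 higher (11.8%) and 0 lower. The endonuclease gene SMG6 held 42.6, 38.9 and 29.4 CPM in the untreated libraries and 104, 106 and 95.1 CPM with OMX (log2 fold change 1.46 with SE 0.23, adjusted p = 0.000592), and UPF2 rose by 1.32 (SE 0.33), a call lost with either untreated replicate 2 or OMX replicate 2 left out (adjusted p = 0.0532 and 0.0617). SR proteins, CLK kinases and hnRNPs had 1 of 34 higher and 2 lower (median -0.06). CLK3, a kinase of splicing factors, rose by 1.08 (SE 0.22), HNRNPAB fell by 1.08 (SE 0.21) together with PHYKPL, facing it in mouse (-1.06), and HNRNPA3 fell by 0.75 (SE 0.25), a call kept without OMX replicate 2 and lost without any other library (adjusted p = 0.064 to 0.143, and 0.0516 without the 2 highest rows). In the microRNA machinery, 1 of 13 genes was lower, DICER1, and 1 higher, AGO3 (1.10 (SE 0.34)), whose call was lost without any library but untreated replicate 3 (adjusted p = 0.0718 to 0.128) and with scaling by library size alone (0.0604).

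The Gracie response was set beside that of DLM8 for MYC, the 10 largest rises and the 10 largest falls, by the interaction of line and treatment over 7583 genes with a shared symbol, of which 930 differed (12.3%). These genes were chosen for their size in Gracie, so a difference in that direction is partly set by the choice. The other 10 of these 21 genes could not be compared, having no tested mouse row. MYC, at 0.52 in Gracie and 1.27 in DLM8, did not pass the threshold (difference -0.82, SE 0.36, adjusted p = 0.146), but did so without untreated replicate 1 (adjusted p = 0.0336). FAM20C fell in Gracie by 3.74 and rose in DLM8 by 0.72 (difference -4.54, SE 0.45, adjusted p = 3.62e-06), and DICER1, at -3.34 in Gracie, was not called in DLM8 at -0.39 (difference -3.02, SE 0.42, adjusted p = 9.98e-05). NEURL3 was higher in both lines, at 7.73 in DLM8, and the difference of -0.93 (SE 1.48, adjusted p = 0.747) did not pass. Its Gracie value rests on 2 untreated counts.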

How the data were processed

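RNA was sequenced from 3 OMX and 3 untreated Gracie libraries. Library preparation, per the labels' protocols, used column-purified, DNase-treated RNA, poly(A) selection, fragmentation and a Universal Plus mRNA-Seq kit (NuQuant). The authors deposited whole-number counts per gene. STAR, featureCounts and Subread and the builds CanFam3.1, mm39 and GRCm39 were named per the submitters' processing notes. Their versions, the strand setting and how read pairs were handled: not given in the sources used here. All columns were mapped by their library names (0 were left over).

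The 6 Gracie libraries were fitted with edgeR 4.0.16 in R 4.3.3 (filterByExpr, TMM, quasi-likelihood F-test, Benjamini-Hochberg over all genes tested, adjusted p under 0.05). SE values were computed as |log2 fold change| over the square root of the F statistic. CPM use TMM-scaled totals. The common biological coefficient of variation was 0.296. A fold against a group at 0 counts is a bound set with 3 counts for that group, and a ratio with 1 to 3 counts has an exact 95% interval. The interaction with DLM8 scaled libraries within each line. GENCODE M21, a mouse annotation of another build, told which mouse genes face each other, and 141 of the 152 named genes matched it, 56 of them (39.7%) facing a gene, against 47.0% of all tested genes with a match. The fit was tested on simulated data.

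The members and lists were chosen with earlier results of these data known. Named were MYC, the 12 largest rises and the 12 largest falls of called genes that have a symbol, a mean log2 CPM of at least 3 and groups that do not overlap, and per list the 3 called members with the smallest p, or the 1 member with the smallest p where none was called. Any other gene is marked as a later pick. Replicate libraries differed beyond counting noise (chi-square per degree of freedom 7.06 to 21.2). Alternatives were other scalings, DESeq2 1.42.0, other filters, halved counts, genes with a symbol, a replicate block and leaving out each library. After seeing the data, a fit without the 2 rows with the most counts and 1 on genes with no facing gene in mouse were added.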

Additional observations from a re-analysis of the deposited data

Results flagged for a closer look

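Of the 11 genes that could be compared with DLM8, 9 responded differently in Gracie by edgeR's test of the interaction of line and treatment, adjusted over 7583 genes. They had been chosen as the largest changes of Gracie. NOS3 was higher in Gracie and not called in DLM8 (log2 fold change 0.86, SE 0.66), a difference of 6.22 (SE 0.96, adjusted p = 0.000303). ARRDC4 and TXNIP rose in both lines, by 2.65 and 4.23 in DLM8, and more in Gracie, by differences of 3.90 (SE 0.82, adjusted p = 0.00382) and 2.25 (SE 0.61, adjusted p = 0.02). NOS3 and ARRDC4 each had 2 untreated counts in Gracie and passed the filter on low counts through their OMX counts. The size of their differences therefore rests on a starting level near 0 and is no exact measurement. FAM20C fell in Gracie and rose in DLM8 (difference -4.54, adjusted p = 3.62e-06). LGR4, ANGPTL2 and FSTL1 fell in both lines, by 1.78, 1.90 and 0.76 in DLM8, with differences of -2.96 (SE 0.92, adjusted p = 0.0407), -1.88 (SE 0.40, adjusted p = 0.00386) and -2.77 (SE 0.51, adjusted p = 0.00156). DICER1 and E2F8 fell in Gracie and were not called in DLM8, with differences of -3.02 (adjusted p = 9.98e-05) and -3.23 (SE 0.69, adjusted p = 0.00437). The TXNIP difference lost its call without untreated replicate 2 (adjusted p = 0.0718), untreated replicate 3 (0.0582) or OMX replicate 1 (0.0528), and that of LGR4 without untreated replicate 2 (0.0763) or 3 (0.0641) or OMX replicate 1 (0.0564) or 2 (0.0791).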

How the results depend on the processing

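Under the 17 alternatives no gene named by rank, MYC included, and no difference from DLM8 changed its sign. Calls numbered 1308 higher and 840 lower, and leaving out each library gave 827 to 1462 higher and 395 to 925 lower (794 to 1208 and 358 to 565 over 2-fold). Genes with no facing gene in mouse, 3654 in number and so fewer, gave 454 higher and 346 lower, 361 and 233 of them over 2-fold, and 309 interactions. DESeq2 gave 1398 higher and 941 lower, of which 1296 and 836 were also called by edgeR. MYC was called in none of the settings run. The replicate numbers did not pair the libraries: deviations of same-numbered libraries correlated at 0.129, -0.0197 and 0.182, and with the replicate number as a block 1427 genes were higher and 1010 lower, the MYC difference from DLM8 had an adjusted p of 0.0369 and GARS1 passed the threshold (adjusted p = 0.0479). Of the 149 called named genes, 126 kept their call without any of the 6 libraries and 145 under every other setting that tested them. At this depth, a gene with 0 untreated counts has no measured starting level, and a gene that missed the threshold is not shown to be equal in both groups.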

Other observations

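Target genes of the aryl hydrocarbon receptor, a ligand-activated transcription factor that induces cytochrome P450 genes, were chosen with their values known, as CYP1A2 was among the largest rises. CYP1B1, which metabolises steroids and aromatic hydrocarbons, held 23.6, 14.02 and 19.7 CPM in the untreated libraries and 238, 172 and 124 CPM with OMX (log2 fold change 3.21 with SE 0.30, adjusted p = 9.5e-06). AHRR, the repressor that the receptor induces, held 22.5, 14.4 and 18.6 CPM in the untreated libraries and 296, 239 and 201 CPM with OMX, with no overlap between groups (log2 fold change 3.73 with SE 0.26, adjusted p = 1.08e-06). CYP1A1 went from 0 to 99 counts, at least 28.9-fold higher, and TIPARP, an ADP-ribosyltransferase that restrains the receptor, rose from 62.5 ± 25.9 to 404 ± 113 CPM (2.69 (SE 0.30)). The receptor gene AHR itself had a log2 fold change of 1.14 (SE 0.28), its partner gene ARNT of 0.52 (SE 0.34) with no call (adjusted p = 0.297), and NQO1, which the receptor and NRF2 both induce, of -0.92 (SE 0.36) with no call (adjusted p = 0.0839).

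The rows with the most counts have no symbol. ENSCAFG00000044432 held 24020, 20490 and 19450 CPM in the untreated libraries and 91120, 70390 and 70690 CPM with OMX (log2 fold change 1.86 with SE 0.16, adjusted p = 4.73e-06), and ENSCAFG00000018897 held 15850, 20260 and 19520 CPM in the untreated libraries and 104700, 67850 and 64050 CPM with OMX (log2 fold change 2.09 with SE 0.19, adjusted p = 9.68e-06). Both rows were higher in every OMX library. Without them 1339 genes were higher and 822 lower.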
